A study of Mus musculus with 28 samples.

Results

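Wells that held single liver endothelial cells were picked out of a plate-based single-cell RNA measurement of mouse liver and compared with the other wells, most of which held immune cells or RNA of hepatocytes. A well counted as endothelial if it held at least 300 gene UMIs (unique molecular identifiers, each marking 1 captured mRNA molecule), at least 4 UMIs over Ptprb, Clec4g, Kdr, Stab2, Gpr116, Bmp2 and F8, and at most 1 UMI over the immune genes Clec4f, Cd5l, Cd3g, Cd79b, Siglech and Gzma. The wells were thus selected on the readout itself, chosen by the UMIs of these 13 genes, and they numbered 774 of the 2692 wells with at least 300 UMIs, or 28.8%. The cells were non-parenchymal cells (all liver cells other than hepatocytes) from 2 C57BL/6 male mice aged 3 and 4 months, with 5 libraries from the first mouse and 6 from the second. The labels name no engineered allele and no sort gate for these cells. How the animals divide over the groups of wells is not known. All animals were kept on a reversed phase cycle, fasted for 2 hours, anaesthetised with ketamine and xylazine, and perfused with collagenase. A further 17 libraries of hepatocytes sorted with an attached endothelial cell were not used here.

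The liver sinusoids are capillaries whose endothelial cells have open pores and almost no basement membrane, so that plasma reaches the hepatocytes directly. These cells are known for the rapid uptake of waste molecules through scavenger receptors, for making clotting factor VIII, and for sending Wnt and BMP signals to hepatocytes. Along each sinusoid, endothelial cells near the portal vessels and near the central vein are known to differ in gene expression. Kupffer cells, the resident macrophages, share the sinusoid with them and share part of their scavenger receptors.

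The table does not say which well came from which library or mouse, so all wells together were treated as 1 sample. The design therefore allowed no test over animals, and p-values are not given. The comparison between the groups is also the comparison that the rule made, so its values are given as a description. Levels are UMIs summed over the wells of a group per 1000000 gene UMIs of that group, and a log2 ratio is the level in endothelial wells over that in the other wells. Since molecules were counted at their 3' end, a level holds no term for transcript length. Intervals in brackets are exact 95% intervals that cover counting error only, not variation between wells or mice.

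The 774 endothelial wells held 554775 UMIs, with a median of 594.5 per well and a range of 300 to 2881, and the 1918 other wells held 1910141, with a median of 772.5. Well numbers fell into 2 runs of plate-sized blocks, run A with blocks A1 to A5 and run B with blocks B1 to B6. Blocks are used as technical batches, and no source ties them to mice. Endothelial wells were 33.2%, 27.7%, 29.0%, 32.6% and 26.8% of the wells in A1 to A5. They were 80.3%, 86.7% and 83.1% in B1 to B3 and 2.26%, 3.41% and 1.44% in B4 to B6. Only run A held many wells of both kinds in every block, so ratios and list medians within run A are given beside the pooled ones where they differ from them by over 1.5 times. Such medians cover the list genes with at least 30 UMIs within run A, so their genes can differ from those of the pooled median. Block ranges below cover the 8 blocks with at least 50 endothelial wells, A1 to A5 and B1 to B3.

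**Figure D1:**
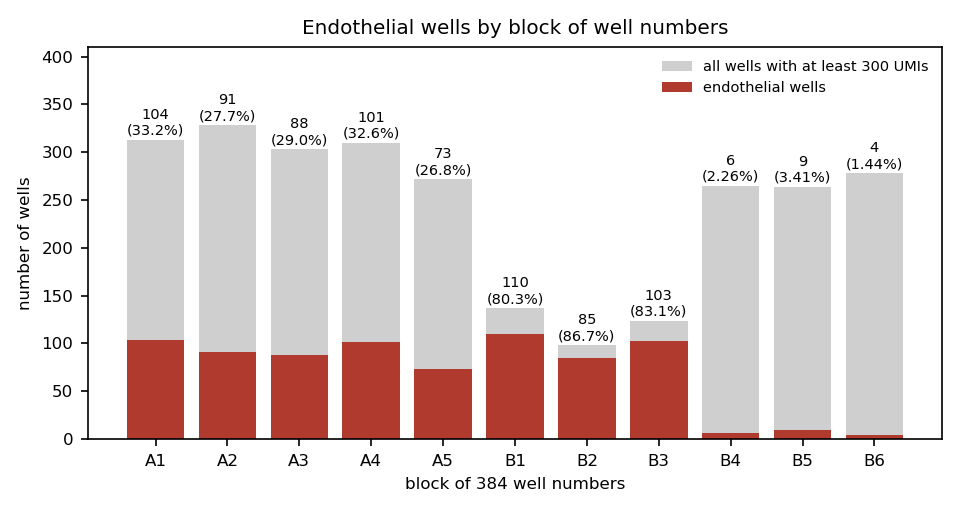
Number of wells with at least 300 UMIs in each plate-sized block of well numbers (grey) and of the endothelial wells among them (red). The y axis counts wells. Endothelial wells were 26.8% to 33.2% of wells in A1 to A5, 80.3% to 86.7% in B1 to B3 and at most 3.41% in B4 to B6.

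The genes that chose the wells are given first. Their high levels are set by the rule and check nothing, whereas Lyve1, Fcgr2b, Cdh5 and Pecam1, described further on, were not used by it. Ptprb, the receptor phosphatase VE-PTP, had 3467 UMIs in endothelial wells and 309 in the others, levels of 6249 and 162, and its lowest, median and highest block level was 5035, 5769 and 7639. Clec4g, the C-type lectin LSECtin, had levels of 3969 and 113, with block levels of 3295, 3976 and 5299. Kdr, the main VEGF receptor of endothelium, had levels of 2610 and 53.9, with block levels of 2175, 2709 and 2877. The block levels of these genes stayed within a narrow range. Bmp2, a BMP ligand that regulates hepatic iron, had levels of 2111 and 46.1. Gpr116, an adhesion receptor, had levels of 2370 and 60.2. Stab2, the hyaluronan scavenger receptor stabilin-2, had levels of 1503 and 60.2, and F8, clotting factor VIII, had levels of 1244 and 29.8. Ptprb was seen in 91.1% of endothelial wells and F8 in 46.4%, and 426 wells (55.0%) held UMIs of at least 5 of the 7 genes. Of the immune genes, 661 endothelial wells held none and 113 held 1 UMI.

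The median endothelial well held 11 UMIs of the 7 genes, with a range of 4 to 99, and 470 wells held at least 10. Of the other wells, 1454 (75.8%) held none and 281 held 1. The remaining 147 had 2 or 3, and 36 had at least 4 endothelial UMIs together with at least 2 immune ones. At the threshold, with at most 1 immune UMI, there were 55 wells with 2 endothelial UMIs, 43 with 3, 55 with 4 and 49 with 5. Lyve1, a hyaluronan receptor that the rule did not use, had a level of 148 in the wells with 2, 570 with 3, 1669 with 4 and 1242 with 5, and 2523 in those with at least 10. Cd74, the invariant chain of MHC class II, had levels of 4185, 1749, 228, 532 and 198 in the same order. Wells just outside the limit therefore held more Cd74 and less Lyve1 than those just inside. Depth moved with membership, since 35.5% of wells with under 500 UMIs, 33.0% of those with 500 to under 1000 and 16.9% of those with at least 1000 were endothelial. Among endothelial wells the 7 genes made up 20.2 of every 1000 UMIs in the shallowest class and 20.1 in the deepest.

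Outside the 13 rule genes, 9463 genes had at least 30 UMIs over both groups, and a gene is called here when its levels differ at least 2-fold. Of these, 1646 (17.4%) were higher in endothelial wells and 2081 (22.0%) were lower, and the median log2 ratio over all of them was -0.03. The 17.4% and 22.0% are the background for the counts of every list below. Each list is described by its count and its median and was not tested as a set.

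The 20 genes with the highest ratios among those with at least 100 UMIs in endothelial wells had log2 ratios of 4.88 to 5.52, and each was higher in all 5 blocks of run A. Cyyr1, a small membrane protein of little-known function, had 120 UMIs against 9, levels of 216 and 4.71, and a log2 ratio of 5.52 [4.55 to 6.68]. Within run A its log2 ratio was 6.54 and within run B 4.46, on 3 and 6 UMIs in the other wells. Hspg2, which encodes the basement membrane proteoglycan perlecan, had 182 UMIs against 14, levels of 328 and 7.33, and a log2 ratio of 5.48 [4.70 to 6.38]. Its lowest, median and highest block level was 140, 358 and 495, so every block lay far above the other wells. Clec14a, an endothelial C-type lectin that binds matrix, was the most frequent of the 20, with 537 UMIs against 60 and levels of 968 and 31.4, a 30.8-fold difference. Its block levels ran from 900 through a median of 932 to 1164.

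Several of the 20 encode receptors and junction proteins. Tie1, an angiopoietin co-receptor, had 226 UMIs against 24 and a log2 ratio of 5.02 [4.41 to 5.69]. Esam, an adhesion molecule of endothelial junctions, had 330 against 35 (5.02), and Ephb4, an ephrin receptor of veins, had 234 against 27 (4.90). Npr1, the receptor for atrial natriuretic peptide, had 269 against 28, with a log2 ratio of 5.05 [4.48 to 5.66], and Osmr, the oncostatin M receptor, had 116 against 13 (4.94). Plxna2, a semaphorin receptor, had 104 against 10 (5.16). Btnl9, a butyrophilin-like surface protein, had 254 against 26 (5.07, and 5.81 within run A), and Col13a1, a transmembrane collagen, had 154 against 13 (5.35). Each of these genes therefore had fewer than 40 UMIs in 1918 wells. Those wells include the 147 with 2 or 3 endothelial UMIs and the 36 with at least 4, so the ratios depend on the limits of the rule. With the other wells limited to those with 0 endothelial UMIs, 18 named genes shifted by more than the half-width of their intervals. Over all alternatives tried, the log2 ratio of Btnl9 ran from 3.77 to 7.19.

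Regulators and a secreted ligand made up much of the rest. Sox18, a transcription factor of vessel formation, had 188 UMIs against 22 (4.88), and Meis2, a homeobox factor, had 233 against 26 (4.95). Bmp6, a BMP ligand that controls hepatic hepcidin, had 128 against 15, with a log2 ratio of 4.88 [4.10 to 5.76]. Fgd5 and Prex2, exchange factors for small GTPases, had 170 against 19 (4.95) and 142 against 15 (5.03, and 6.22 within run A for Prex2). Msrb3, a methionine sulfoxide reductase, had 189 against 21 (4.95). Ushbp1 had 137 against 15 (4.97) and Fam171a1 had 147 against 15 (5.08, and 6.07 within run A). Pcdhgc5 had 193 against 19 (5.13), but the genes of its protocadherin cluster share their 3' exons, so its count is uncertain.

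Promoters of these genes were read from RefSeq, build GRCm38.p6, as 250 bases before to 50 after the start, which 16 of the 20 genes had. Both strands were searched for TATAAA, which is the usual core promoter box, and for CCGGAA, which is the core that ETS factors bind. They were also searched for AGATAA, which erythroid and endothelial zinc-finger factors of the Gata family bind, and for CACACCC, which Klf factors bind. The first motif was found for 3 genes, the ETS core for 1, the Gata motif for 0 and the Klf motif for 4, namely Hspg2, Fam171a1, Tie1 and Clec14a. Of all 32544 windows of this length, 13.6% held the first motif, 15% the ETS core, 11.2% the Gata motif and 7.98% the Klf motif. Among the rule genes, 5 of 7 had a window, the first motif was found for Clec4g and the ETS core for Kdr. The 250 bases before the start are shown for Hspg2 and Clec14a, the genes above with the motif and the highest ratio or the most UMIs, and for Clec4g, the rule gene with the first motif close to its start. Capitals mark the match, read on the gene's strand as the reverse complement of the searched letters, which begins 163, 13 and 31 bases before the start. The windows lie at chr4:137468553-137468802 on the plus strand, chr12:58269259-58269508 on the minus strand and chr8:3720652-3720901 on the minus strand. A match is a description of the letters and not a site.
Hspg2: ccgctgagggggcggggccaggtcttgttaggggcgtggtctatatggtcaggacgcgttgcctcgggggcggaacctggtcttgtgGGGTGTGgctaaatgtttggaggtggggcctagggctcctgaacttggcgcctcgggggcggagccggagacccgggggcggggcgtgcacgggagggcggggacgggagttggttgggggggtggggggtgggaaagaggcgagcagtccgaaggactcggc
Clec14a: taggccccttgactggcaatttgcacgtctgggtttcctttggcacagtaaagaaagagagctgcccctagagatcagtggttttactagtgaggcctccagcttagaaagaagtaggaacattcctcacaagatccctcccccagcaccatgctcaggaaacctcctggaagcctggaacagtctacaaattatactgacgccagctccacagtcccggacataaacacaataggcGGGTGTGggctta
Clec4g: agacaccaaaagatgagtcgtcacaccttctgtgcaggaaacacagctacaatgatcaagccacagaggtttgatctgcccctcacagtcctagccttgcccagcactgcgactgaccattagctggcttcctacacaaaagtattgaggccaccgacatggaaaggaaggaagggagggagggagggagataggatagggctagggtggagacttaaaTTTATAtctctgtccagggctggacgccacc

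Receptors were the first group of lists. Of 12 measured scavenger and endocytic receptors, 8 were at least 2-fold higher and 2 lower, with a median log2 ratio of 2.74. Mrc1, the mannose receptor that takes up collagen fragments, had levels of 2428 and 378 (log2 ratio 2.68 [2.55 to 2.82]), with block levels of 2102 to 2718. Lyve1 had levels of 2291 and 88.5 (4.69 [4.46 to 4.93]), with a far wider range of block levels, from 1076 through a median of 2254 to 3470. Fcgr2b, the Fc receptor that clears immune complexes, had levels of 2107 and 120 (4.13 [3.92 to 4.34]). Stab1, the sister gene of Stab2, had a level of 941 and a log2 ratio of 4.20, and Cd36, a fatty acid and lipoprotein receptor, had levels of 777 and 77.5. Lrp1, an endocytic receptor for many ligands, went the other way, with 17 UMIs against 381 (-2.70 [-3.5 to -2.0]). In Kupffer-like wells alone Mrc1 had a level of 1288. Msr1, the macrophage scavenger receptor, had 402 there and 274 in endothelial wells.

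Growth factor receptors were higher almost without exception. Of 15 measured receptors of the VEGF, Tie, neuropilin and endoglin list, 14 were at least 2-fold higher and 0 lower, with a median of 4.23. The exception was Acvrl1, a BMP receptor, with 35 UMIs against 82 and a log2 ratio of 0.56. Nrp1, a VEGF co-receptor, had levels of 2864 and 196, with block levels of 2369, 2870 and 3278. Eng, endoglin, had levels of 2345 and 101 (4.54 [4.32 to 4.76]). Flt4 and Flt1, the VEGF receptors 3 and 1, had levels of 1316 and 58.1 and of 1044 and 44.0. Their log2 ratios were 4.50 and 4.57.

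All 17 junction and surface genes were at least 2-fold higher, with a median of 4.15. The general endothelial genes Cdh5, VE-cadherin, and Pecam1, CD31, had lower ratios than most of that list. Cdh5 had levels of 872 and 134 (2.70 [2.48 to 2.93]) and Pecam1 of 872 and 114 (2.94 [2.71 to 3.18]). Tspan7, a tetraspanin, had 627 UMIs against 106 (4.35), and Egfl7, a secreted endothelial protein, had 423 against 83 (4.13). Of 9 measured Notch and ephrin genes, 9 were higher, with a median of 3.55. Notch1 had levels of 355 and 86.4 (2.04), Efnb1 had 191 UMIs against 56 (3.55), and Hes1, a Notch target, had 169 against 66 (3.14).

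Among secreted ligands and angiocrine factors, 10 of 12 measured genes were at least 2-fold higher and 0 lower, with a median of 4.60. The other two were Tgfb1, with 100 UMIs against 261 (0.40), and Pdgfb, with 10 against 56 (-0.70). Igfbp7, which binds insulin-like growth factors, had 3090 UMIs against 443, levels of 5570 and 232, and block levels from 4416 through 5631 to 6652. Wnt2, a Wnt ligand of central sinusoids, had 180 UMIs against 23, levels of 324 and 12 and a log2 ratio of 4.75 [4.12 to 5.45]. Its block levels were lowest at 155, with a median of 314, and highest at 516. Inhbb, an activin subunit, had 124 UMIs against 15 (4.83). Wnt9b and Angpt2 had 8 and 9 UMIs in endothelial wells and 0 in the others, under the minimum for a ratio.

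The genes of clotting and of the vessel wall followed the same pattern with fewer UMIs. Of 12 coagulation genes, 6 had enough UMIs and 6 of these were at least 2-fold higher, with a median of 3.43. Pros1, protein S, had levels of 402 and 45.0, Thbd, thrombomodulin, had 281 and 21.5, and Tfpi, the tissue factor inhibitor, had 225 and 15.7. Lman1 and Mcfd2, which carry factor VIII out of the endoplasmic reticulum, had lower log2 ratios of 1.54 and 1.37. Among nitric oxide, endothelin and shear genes, 8 of 9 were higher, with a median of 3.75. Aqp1, a water channel, had levels of 2484 and 104 (4.58), and Ece1, the endothelin converting enzyme, had 260 UMIs against 101 (3.15). Ptgs1, cyclooxygenase 1, did not reach 2-fold, with levels of 285 and 159 (0.84 [0.55 to 1.12]).

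Of 15 measured basement membrane and matrix genes, 14 were higher and 0 lower, with a median of 4.31. Timp3, a metalloprotease inhibitor, had levels of 2478 and 105, with block levels from 1818 through 2195 to 3715, and Sparc, a collagen-binding protein, had levels of 1384 and 69.6. Ltbp4, which binds latent TGF-beta, had 1044 and 61.8, and Mmrn2, a ligand of Clec14a, had 946 and 41.9 (log2 ratio 4.50, and 5.21 within run A). Fn1, fibronectin, was not higher (log2 ratio -0.82). Markers of stellate cells and fibroblasts, other sources of matrix, were higher in endothelial wells too: 4 of 6 measured markers were at least 2-fold higher, and none of the 12 was at 0. Their median log2 ratio was 1.74. Within run A it was 1.69 over the same genes and 0.96 over those with enough UMIs in that run. Their summed level was 546 against 136, with a range of 65.2 to 1078 over blocks. Dcn, decorin, had 101 UMIs against 63 and Rgs5, a pericyte marker, 64 against 29. The part of these cells in the matrix values was not tested.

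Transcription factors divided more than the other endothelial lists. Of 21 measured, 15 were at least 2-fold higher and 1 lower, with a median of 2.81. Maf, a factor shared with macrophages, had levels of 2906 and 414 (2.81 [2.69 to 2.94]), with block levels of 2261, 2805 and 3561, and its level in Kupffer-like wells was 1137. Nr2f2, the venous factor COUP-TFII, had 1132 and 42.9 (4.72 [4.39 to 5.07]). Klf2, which responds to blood flow, had 1413 and 402 (1.81 [1.67 to 1.96]), and its level in B-like wells was 991. Ets1 had 876 and 620 (0.50 [0.34 to 0.65]), and its level was 1088 in T-like and 63.5 in Kupffer-like wells. Lyl1, a blood and endothelial factor, had 6 UMIs against 46 (-1.15 [-2.67 to 0.08], and -2.14 within run A).

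Lipid genes and GTPase regulators each held members on either side. Of 10 measured lipid genes, 5 were at least 2-fold higher and 2 lower, with a median of 1.64. Within run A the median was 1.97 over the same genes and 3.58 over those with enough UMIs in that run. Ppap2b, a lipid phosphatase, had levels of 3230 and 133 (4.60), and Gpihbp1, which holds lipoprotein lipase on the vessel wall, had 2379 and 101 (4.56). Fabp4, a fatty acid binding protein, had 1091 and 85.9 (3.67 [3.42 to 3.92]). The lipase itself, Lpl, was lower, with 6 UMIs against 146 (-2.82 [-4.29 to -1.66], and -3.41 within run A), and its level in Kupffer-like wells was 242. Of 15 GTPase genes, 12 were higher and 1 lower, with a median of 3.94. Ehd3, which moves endocytic vesicles, had levels of 3120 and 198 (3.98), Rasip1, a Ras-interacting protein of vessel formation, had 271 UMIs against 61 (3.94), and Rasgrp3 had 266 against 97 (3.24). Elmo1, of phagocytic engulfment, had 3 against 134 (-3.70).

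Adhesion and chemokine genes formed the endothelial list closest to the other wells. Of 8 measured, 3 were at least 2-fold higher and 0 lower, with a median of 0.37, and 0.98 within run A. Il6st, the shared IL-6 receptor chain gp130, had levels of 1923 and 115 (4.06). Vcam1, which binds leukocyte integrins, had levels of 314 and 307 (0.03 [-0.22 to 0.28]) and Cxcl9, an interferon-induced chemokine, had 263 and 264 (-0.01 [-0.28 to 0.26]). Within run A the levels of Cxcl9 were 220 and 141 (0.64 [0.24 to 1.02]), and within run B they were 352 and 484. Cxcl9 varied widely over blocks, from 34.2 through 283 to 640. Selp and Sele, the selectins of activated endothelium, had 12 and 0 UMIs in endothelial wells.

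**Figure D2:**
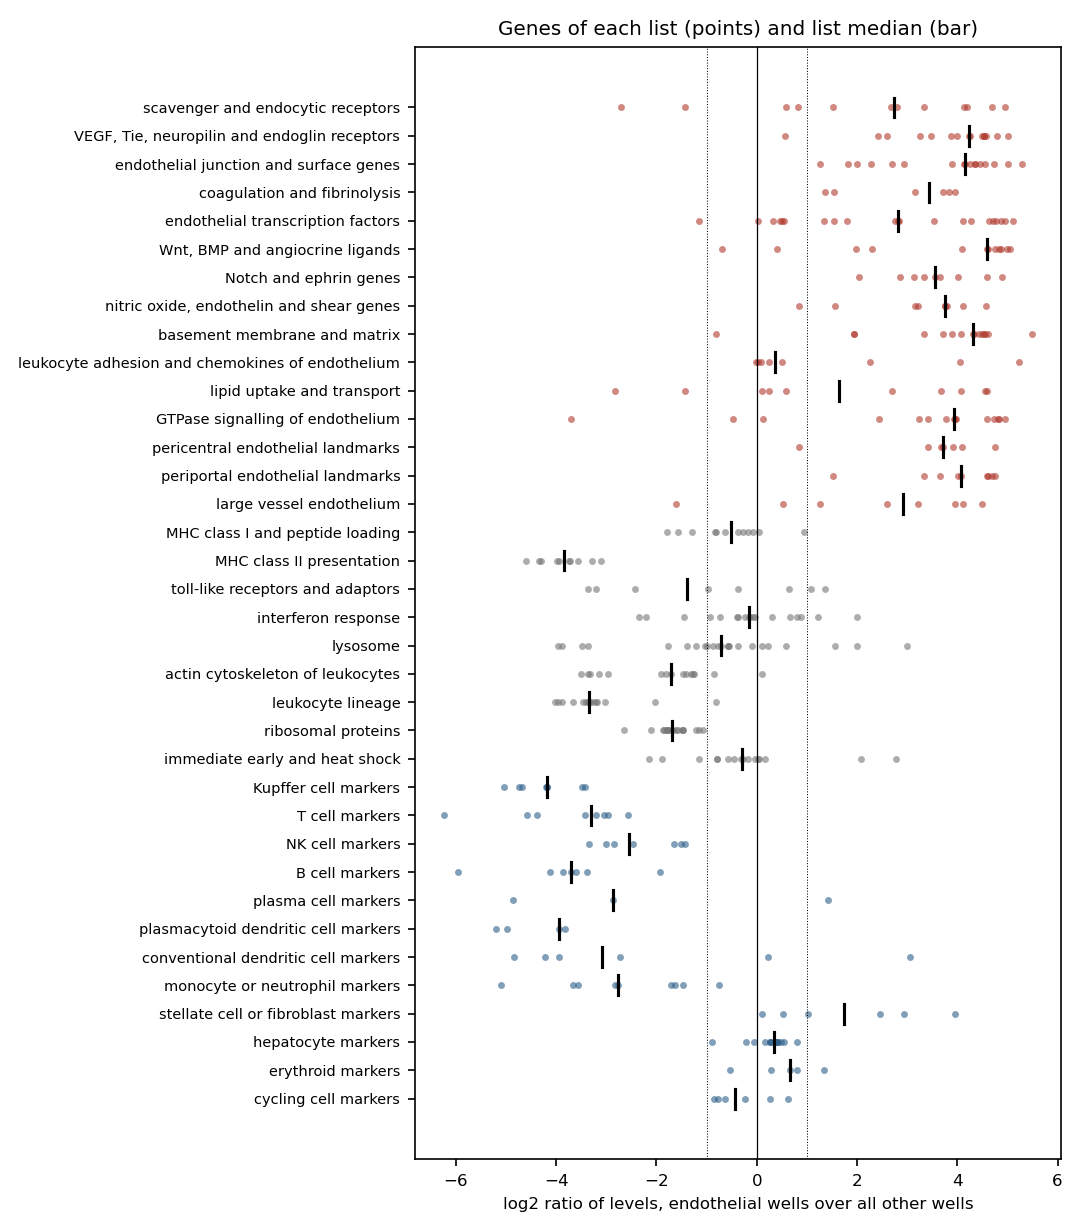
Log2 ratio of the level in endothelial wells over the other wells for each gene of each list with at least 30 UMIs (points) and the list median (bars); dotted lines mark a 2-fold difference and genes at 0 UMIs in a group are not drawn. Endothelial lists have medians of up to 4.60, adhesion and chemokine genes centre at 0.37, and immune marker lists lie below 0.

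On the immune side, the 10 genes with the lowest ratios among those with at least 300 UMIs in the other wells were mostly genes of macrophages, B cells and plasmacytoid dendritic cells. H2-Eb1, an MHC class II chain, had 55 UMIs in endothelial wells against 4627 (-4.61), and C1qc, a complement chain of Kupffer cells, had 22 against 2007 (-4.73). Other macrophage genes among the 10 were Cfp, properdin, with 12 against 1017 (-4.62), and Timd4, a receptor for dying cells, with 4 against 350 (-4.67). Folr2, a folate receptor, had 3 against 341 (-5.04), and Fcgr4, an activating Fc receptor, had 4 against 360 (-4.71, and -3.82 within run A). Irf5, an interferon regulatory factor, had 2 against 313 (-5.51, and -4.68 within run A). Ly6d, of B cells and plasmacytoid dendritic cells, had 4 against 562 (-5.35), and Ccr9, a gut homing receptor, had 3 against 326 (-4.98, and -5.90 within run A). Ighg, immunoglobulin heavy chain, had 0 against 642, at least 62.2-fold lower with a floor of 3 counts over the group. Of those 642 UMIs, 632 lay in block B6 and 584 in 1 well, and without B6 the bound on the log2 ratio was -0.14.

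Other wells were classed by marker lists, giving 281 Kupffer-like, 246 T-like, 164 B-like, 116 NK-like, 112 monocyte- or neutrophil-like, 85 plasmacytoid dendritic-like and 47 conventional dendritic-like wells. In 423 further wells hepatocyte markers reached 3 UMIs and no other list did, and no class fitted 244. The 423 wells are a remainder and also held immune RNA, such as H2-Eb1 at a level of 1901. The lists that name these classes had low medians in endothelial wells, of -4.19 for Kupffer, -3.31 for T, -2.55 for NK and -3.71 for B cell markers. The medians were -3.95 for plasmacytoid dendritic, -3.09 for conventional dendritic, -2.77 for monocyte or neutrophil and -2.86 for plasma cell markers. Over the genes with enough UMIs within run A they were -3.16 for NK, -2.06 for conventional dendritic and -4.31 for plasma cell markers. Over the genes of the pooled medians, the run A values of these 3 lists were -3.76, -3.87 and -4.31, so the plasma cell value was the same. Genes at 0 UMIs took the floor of 3 counts in the first run A values but not in the second. The Kupffer markers summed to 20.6 to 521 per block in endothelial wells and to 4418 to 8108 in the other wells of run A blocks. Of the immune markers, Klrc2, Tnfrsf17, Derl3, Pacsin1, Xcr1 and Flt3 were at 0 UMIs in endothelial wells. Members that went the other way were Zbtb46, a dendritic cell factor, with 65 UMIs against 27 (3.05 [2.38 to 3.76]) and a level of 139 in conventional dendritic-like wells, and Sdc1, syndecan-1, with 21 against 27 (1.42).

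**Figure D3:**
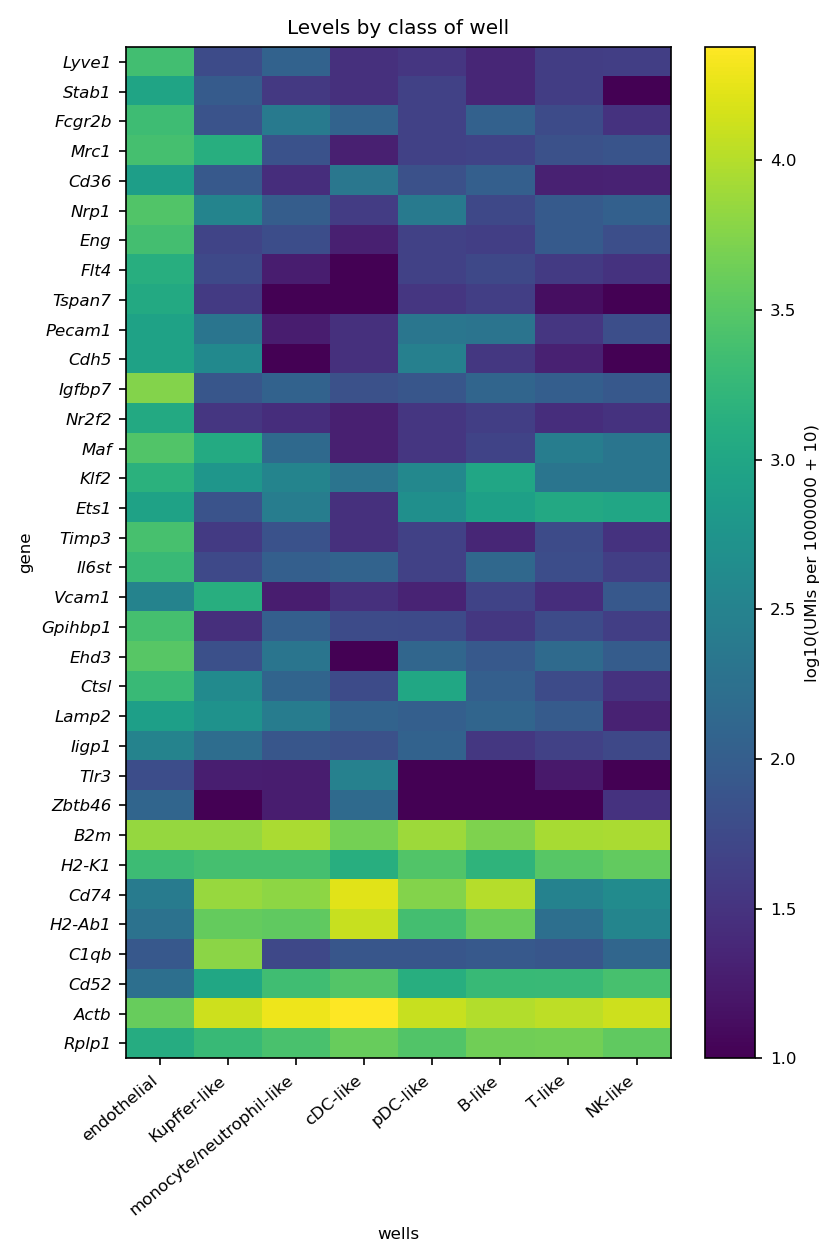
Levels of 34 genes as log10(UMIs per 1000000 + 10) in endothelial wells and in 7 immune-like classes of the other wells, with colour giving the level. Lyve1 and Fcgr2b are high in endothelial wells, whereas Cd74 is high in conventional dendritic-like, B-like and Kupffer-like wells (16606, 9982 and 7221) and low in endothelial and T-like wells (242 and 305).

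Antigen presentation differed between its classes. All 10 measured genes of MHC class II presentation were at least 2-fold lower, with a median of -3.84 and a summed level of 925 against 15882. Cd74 had levels of 242 and 4895 (-4.34 [-4.60 to -4.09]), H2-Aa had 240 and 3812 (-3.99), H2-Ab1 had 175 and 2679 (-3.94), and Ctss, the cathepsin that trims the invariant chain, had 64 UMIs against 2606 (-3.56). T-like wells, at 305 for Cd74, lay close to the endothelial level. For MHC class I and peptide loading, 0 of 12 genes were at least 2-fold higher and 3 lower, with a median of -0.51. B2m had levels of 6877 and 7726 (-0.17 [-0.22 to -0.12]), H2-K1 had 2082 and 2706 (-0.38), and H2-T23, a non-classical chain, had 836 and 437 (0.94).

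Innate sensing genes split by member. Of 10 measured toll-like receptors and adaptors, 2 were at least 2-fold higher and 5 lower, with a median of -1.39. The higher genes were Tlr3, the receptor for double-stranded RNA, with 29 UMIs against 39 (1.36 [0.61 to 2.09]), and its adaptor Ticam1, TRIF, with 16 against 26 (1.08). The level of Tlr3 was 52.3 in endothelial wells, 297 in conventional dendritic-like wells and 9.07 in Kupffer-like wells. Unc93b1, which carries toll-like receptors to endosomes, had 27 UMIs against 501 (-2.43), and Myd88, the adaptor of most other receptors, had 25 against 170 (-0.98). The interferon list had a median of -0.15, with 2 of 18 genes higher and 3 lower. Iigp1, an interferon-induced GTPase, had levels of 310 and 78.0 (1.99 [1.67 to 2.32]), and Ifit2 had 65 UMIs against 96 (1.22).

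Lysosomal genes were likewise divided, with 3 of 23 higher, 8 lower and a median of -0.72. Ctsl, cathepsin L, had levels of 1950 and 244 (3.00 [2.84 to 3.16]), and its level was 1034 in plasmacytoid dendritic-like and 408 in Kupffer-like wells. Lamp2, a lysosomal membrane protein, had 795 and 199 (2.00), and Laptm4a had 770 and 262 (1.56). Ctsb, cathepsin B, had 970 and 1921 (-0.99), so the pair of cathepsins lay on opposite sides.

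Cytoskeletal, ribosomal and leukocyte lineage genes were mostly lower. Of 15 actin and cytoskeleton genes, 13 were at least 2-fold lower and 0 higher. Actb had levels of 3897 and 12730 (-1.71 [-1.77 to -1.64]) and Tmsb4x, thymosin beta-4, had 2810 and 10507 (-1.90). All 18 measured ribosomal protein genes were at least 2-fold lower, with a median of -1.68 and a summed level of 11322 against 33414. Leukocyte lineage genes had a median of -3.35, with 14 of 15 lower. Cd52 had levels of 159 and 1741 (-3.46) and Srgn, serglycin, had 510 and 900 (-0.82). Levels are shares of the UMIs of a whole group, in which deeper wells weigh more, and a lower share cannot be told apart from more RNA of other genes. The median ratio of gene UMIs to spike-in UMIs in run A was 2.13 in endothelial wells, 2.20 in NK-like, 2.81 in Kupffer-like and 3.53 in T-like wells. It was 8.22 in conventional dendritic-like wells and 2.36 in the wells left with hepatocyte markers alone. Cycling genes had a median of -0.43, with none of 6 at least 2-fold apart. Immediate early and heat shock genes, which can respond to dissociation, had a median of -0.29, with 2 of 16 higher and 3 lower. The higher ones were Jun, a stress-responsive factor, with levels of 335 and 79.6 (2.07), and Ier3, with 101 and 14.7 (2.78). The 9 listed symbols of mitochondrially encoded genes had 0 UMIs in either group, so RNA quality could not be read from them. Whether such RNA was counted under other symbols was not examined. After thinning each well to 300 UMIs, the median number of genes was 240 in endothelial and 238 in the other wells.

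Among the most abundant genes, Sepp1, the selenium carrier selenoprotein P, had the most UMIs in endothelial wells, 8386, with levels of 15116 and 1682 (3.17). Dnase1l3, a secreted nuclease that degrades DNA in plasma, had levels of 4998 and 318 (3.97). Malat1, a nuclear non-coding RNA, had 6585 and 2363 (1.48). Oit3, of little-known function, had 1691 and 71.2 (4.57).

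RNA of hepatocytes was present in both groups. The 14 hepatocyte markers summed to 14680 in endothelial and 12085 in the other wells, with a median log2 ratio of 0.34, none of the 14 at least 2-fold apart, and a range of 9589 to 22191 over blocks. Alb, albumin, had levels of 5710 and 4292 (0.41 [0.35 to 0.47]) and block levels of 3590 to 9557. The level of the 7 endothelial rule genes in wells of immune-like classes was 151 in run A, where 18.8% of such wells held a UMI of them, and 100 in B4 to B6, where 9.57% did. These were 111 UMIs in 111 wells and 44 UMIs in 44 wells, because wells with more were not placed in these classes. Both levels are therefore capped by the classing. Few endothelial wells were seen in B4 to B6, yet the genes were still counted there. C1qa, C1qb and C1qc, defining genes of Kupffer cells, summed to 201 in endothelial wells of run A and 47.3 in those of B1 to B3, where no Kupffer-like well was found. Igkc, an antibody light chain, had a level of 34.9 in run A and 112 in B1 to B3, where no B-like well was found. These were 13 UMIs in 10 wells (2.19%) and 19 UMIs in 6 wells (2.01%), so the share of wells hardly differed. Lyz2, a lysozyme of myeloid cells, had 137 and 425, but its levels were 1043 in B1, 20.6 in B2 and 118 in B3. B1 held 3 monocyte- or neutrophil-like wells, and B2 and B3 held 0. The share of low levels in either group that came from free RNA was not tested.

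Lyve1 differed between the runs. Its log2 ratio was 4.69 over all wells, 5.0 within run A and 3.88 within run B. Its level in endothelial wells was 2727 in run A and 1397 in run B.

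**Figure D4:**
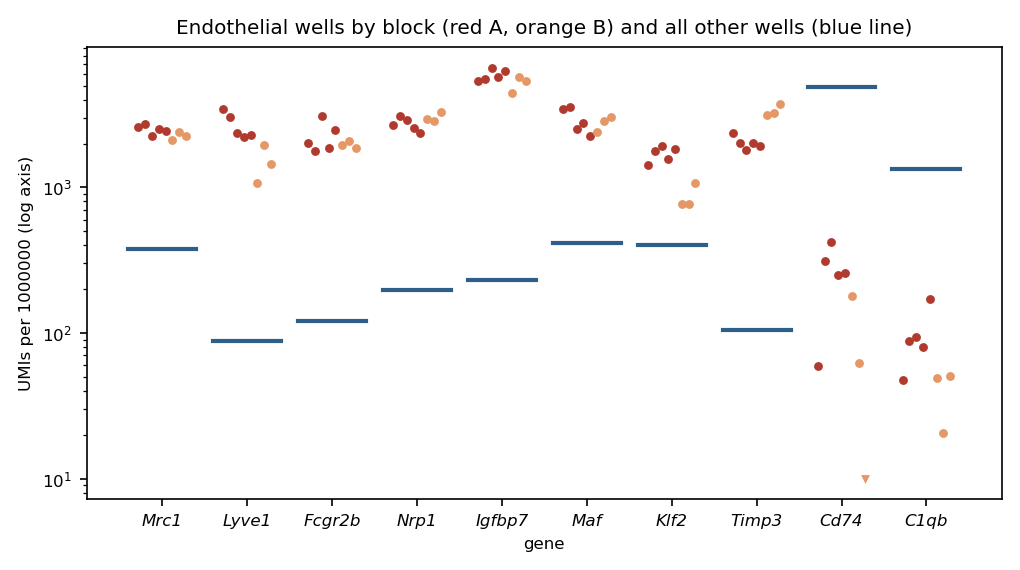
Levels (UMIs per 1000000, log axis) of 10 genes in the endothelial wells of each of 8 blocks, red for run A and orange for run B, with a blue line for all other wells together; a triangle at 10 stands for a value under 10. Every block of Lyve1, from 1076 to 3470, lies above the 88.5 of the other wells.

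Endothelial wells differed among themselves in genes of position along the sinusoid. Landmark genes of central (Wnt2, Rspo3, Thbd, Cdh13, Fabp4, Kit) and portal (Dll4, Efnb2, Ltbp4, Ntn4, Msr1, Adam23, Lyve1) endothelium, some of which this same study had brought to attention, so that they are no independent evidence of direction, were compared in pairs. For each pair, the level of the second gene in wells with a UMI of the first was set against its level in wells without. Counts and medians use 1 direction per pair, with the alphabetically first gene first within a group and the central gene first in mixed pairs. The other direction can differ in sign, as for Thbd and Wnt2, with -0.08 when Thbd came first and 0.55 when Wnt2 did. Of 15 central pairs, 14 were above 0, with a median log2 ratio of 0.88, and of 21 portal pairs 19 were above 0, with a median of 0.42. Of 42 mixed pairs, 36 were below 0 and 5 above, with a median of -0.52. Within run A, 15 central pairs and 16 portal pairs were above 0 and 37 mixed pairs below. Within run B the counts were 12, 15 and 29.

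Single pairs show the size of these differences. In the 129 wells with Kit, a receptor kinase, Wnt2 had 66 of its 180 UMIs, a log2 ratio of 1.18 [0.72 to 1.63], with 1.12 in run A and 1.36 in run B. In the same wells Msr1 had 8 UMIs against 144 in wells without Kit (-2.20 [-3.44 to -1.18]), and Ntn4, a netrin of basement membranes, had 25 against 282 (-1.52 [-2.18 to -0.93]). Kit wells were deeper, with a median of 742 UMIs against 570, and levels are per total UMIs. In the 84 wells with Msr1, Ntn4 had 99 UMIs against 208 (1.60 [1.24 to 1.95]), with 1.57 in run A and 1.63 in run B, whereas Kit had 6 against 214 (-2.49 [-3.95 to -1.34]). In the 353 wells with Lyve1, Cd36 had 284 UMIs against 147 (0.96 [0.67 to 1.26]). The pair of Ntn4 and Fabp4 went against the groups, with log2 ratios of 0.45 and 0.70, and so did Lyve1 and Ntn4, with -0.34 and -0.91.

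**Figure D5:**
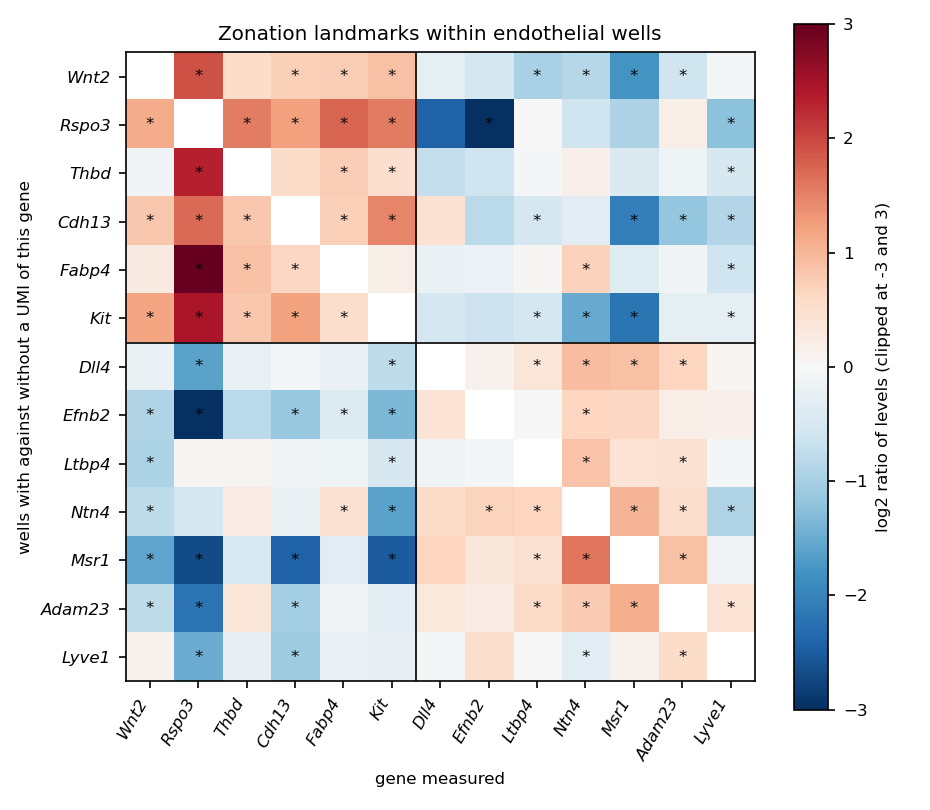
Log2 ratio of the level of the column gene in endothelial wells with a UMI of the row gene over wells without, for 13 landmark genes, with colours limited to -3 and 3; an asterisk marks a 95% interval that does not include 0. Central genes are mostly positive with each other (median 0.88), portal genes less so (0.42), and mixed pairs are mostly negative (-0.52). The medians take 1 direction per pair, whereas both are drawn.

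With wells thinned to 300 UMIs and Lyve1 left out, 180 endothelial wells (23.3%) held central landmarks only, 244 (31.5%) portal only, 113 (14.6%) held both and 237 (30.6%) neither. At this depth a well without a landmark UMI cannot be placed.

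A few endothelial wells carried Vwf, von Willebrand factor, which marks larger vessels more than sinusoids. Vwf had 27 UMIs in 17 wells, 9 in run A and 8 in run B, and these were deep wells with a median of 1044 UMIs. Rspo3, an R-spondin that raises Wnt signalling around the central vein, had 50 of its 84 UMIs in 6 of the 17 wells. Its level was 2618 in Vwf wells and 63.5 in the rest, a log2 ratio of 5.37 [4.71 to 6.04], and 5.10 [4.40 to 5.81] without the top well. Lyve1 had 1 UMI in Vwf wells against 1270 in the rest. Clec4g had levels of 1623 and 4053 and Bmp2 of 524 and 2167, but both belong to the rule that chose the wells, so their presence is partly set by it. Cdh5, common to all endothelium, had 995 and 868. Fabp4 had 3246 and 1014, and Ednrb, the endothelin B receptor, had 681 and 97.1. These wells were picked after values were seen.

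Other vessel types left few molecules. Of the large vessel list, 8 genes had enough UMIs and 6 were at least 2-fold higher, among them Gja4, a connexin, with 295 UMIs against 45 (4.50). Ly6c1 went the other way, with 6 against 63 (-1.61, and -2.29 within run A). The lymphatic list had 17 UMIs in endothelial wells and 13 in the others, and its genes Pdpn, Ccl21a and Mmrn1 were at 0 in endothelial wells. The 64 endothelial wells without Clec4g and Stab2 UMIs had a Lyve1 level of 1923, against 2320 in the rest, and a Cdh5 level of 345 against 914. Pecam1 differed in the opposite direction, with 1085 against 856.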

How the data were processed

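Per the labels' protocols, polyA RNA of liver non-parenchymal cells was measured with MARS-seq, which counts mRNA at the 3' end. The authors deposited whole-number UMI counts for each gene symbol in each well, not normalized. Per the submitters' processing notes, bcl2fastq 2.15.0.4 and build mm9 were used. Which aligner and annotation were used is not given in the sources used here. Promoters come from another build and were matched by symbol only. Spike-in rows (52.8% of UMIs), 1028 of 3720 wells under 300 UMIs and 68 symbols that differ from another by letter case alone were dropped. No doublet caller was run.

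UMIs were summed over wells with Python 3.11.15, pandas 2.3.3 and scipy 1.17.1. Members and lists were chosen with earlier results of these data known. Named were the 20 highest ratios with at least 100 UMIs in endothelial wells and the 10 lowest with at least 300 in the others, per list the 2 to 4 members with most UMIs and any member 2-fold against its list, and the 15 largest Fano factors. A well took the class of the marker list with most UMIs (at least 3, and at least 2 times the next list). The hepatocyte list was used only where no other list reached 3 UMIs, and without the condition on the next list. The interval code was tested on simulated data. TMM (edgeR 4.0.16) and DESeq2 1.42.0 gave only alternative scalings. A few list members are counted in their lists but not reported here by name.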

Additional observations from a re-analysis of the deposited data

How the results depend on the processing

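No paired analysis was possible because wells are not tied to mice or libraries, and no result comes from a test. The rule gave 506 wells at a minimum of 500 UMIs and 140 at 1000. Run A alone held 457 and run B alone 317, both alternatives chosen after seeing the data. The 1646 genes at least 2-fold higher became 4182 with no minimum UMIs per gene (of 17753 genes), 785 at 100 UMIs (of 5100), 978 with wells thinned to 300 UMIs (of 5569) and 943 in run B alone (of 5751). The 2081 lower genes became 5897, 1181 and 1283 under the first 3 of these. Fewer genes with enough UMIs were compared in the smaller counts. Leaving out each block in turn (leave-one-out) gave 1554 to 1633 higher and 1997 to 2135 lower. TMM and DESeq2 scaling lowered every log2 ratio by a shift of -0.13 and -0.14, which changed the counts to 1437 and 1427 higher and 2316 and 2328 lower, and the higher share of calls from 44.2% to 38.3% and 38.0%. Log2 ratios as small as that of Vcam1 (0.03) change sign under that shift. List medians and named genes at least 2-fold from 0 kept their direction in all these alternatives but 1: plasma cell markers reached 1.05 with no minimum UMIs per gene. That setting adds Tnfrsf17 and Derl3, which had 0 UMIs in endothelial wells and entered at the floor of 3 counts. A gene at 0 can then score as higher, so the 1.05 shows no change of direction. Of the recomputed list medians 98 shifted by more than the median half-width of the intervals of their single genes, and 860 did not. This limit is not an interval of the list median itself. Of the recomputed values of named genes, 130 shifted by more than the half-width of the gene's own interval and 678 did not. Genes with few UMIs per well limit every statement about single wells.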

Other observations

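Endothelial wells of the 2 runs of well numbers were also compared. Of 1976 genes with at least 60 UMIs, 116 (5.87%) were at least 2-fold apart between run A and run B, and no source says whether a run is a mouse. Cyp26b1, which degrades retinoic acid, had 10 UMIs in run A and 92 in run B, levels of 26.8 and 506, and its levels in the other wells shifted too, from 1.63 to 23.3. Dbp, a clock-controlled transcription factor, had 22 and 87 UMIs, levels of 59.0 and 479, and in the other wells its levels were 21.2 and 55.4. Tef and Hlf, related factors, had levels of 129 and 358 and of 42.9 and 193. Nr1d1, a clock repressor, had 3 and 22 UMIs, whereas Per1 had levels of 164 and 127 and Clock of 69.7 and 88.0. Genes of hepatocytes were among those higher in run B, such as Uox, urate oxidase, with levels of 85.8 and 407, and Fabp1, with 174 and 693. In the other wells Uox had 80.9 and 243 and Fabp1 190 and 780, and the summed hepatocyte markers of endothelial wells were 12660 in run A and 19091 in B1 to B3. The part of hepatocyte RNA in the other differences between runs was not tested. Higher in run A were Gnaz, a G protein subunit, with levels of 590 and 121, Osmr with 276 and 71.5, and Il1a, a cytokine, with 271 and 60.5. In the other wells their levels were 621 and 382, 7.35 and 5.83, and 18 and 10.2. Gnaz ranged from 23.7 to 1756 over the blocks of run A. These genes were chosen after their values were seen.

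With each endothelial well thinned to 300 UMIs, 822 genes had at least 50 UMIs, and the median Fano factor (variance over mean, near 1 for counting noise alone) was 1.26. Hbb-b1, a globin of red cells, had 13.2, with 62.5% of its UMIs in 10 wells. Malat1 had 7.28, Gm10925 3.4, AC113316.1 2.80 and Alb 2.75. Lyve1 had 2.36 and was seen in 33.5% of thinned wells. The other genes among the 15 highest were Gm13339, Gm11410, Ccdc80 (2.00), Ifi203, Sepp1 (1.95), Ly6a, Ppig, Top1 and Cd74 (1.79). Tie1 had 1.04 and Sox18 had 1.06, on means of 0.118 and 0.0969 UMIs per thinned well. At so few UMIs a value near 1 cannot show an even spread over wells.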
